A study of Homo sapiens with 6 samples.

Results

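A set of 10 genes of glycoprotein folding in the endoplasmic reticulum (ER) was followed, out of 32078 named genes in the count table. They are GANAB and PRKCSH, which encode the 2 subunits of glucosidase II, and 8 genes whose products act beside it: MOGS, UGGT1, UGGT2, CANX, CALR, PDIA3, STT3A and STT3B. Each was found by its symbol in the table, each matched 1 row, and all 10 passed the filter on low counts. They were chosen by the fold change of GANAB between these groups, set against its partners, with that comparison already in view. Their own differences are therefore given as a description, and no p-value is printed for a member. Where calls of members by adjusted p are given, they are descriptions too.

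The 6 libraries are poly(A) RNA of PANC-1, an established human pancreatic carcinoma cell line. Of these, 3 are labelled as untreated controls and 3 as cells that received extracellular vesicles (EVs) of cancer-associated fibroblasts (CAFs), and both groups are otherwise the same line. The protocol text mentions the vesicles for every library, so the groups rest on titles and treatment labels. Vesicle dose, time and the number of separate cultures were not given in the sources used here, and p-values therefore reflect only how far these libraries spread, part of which may be technical. Totals ran from 21669757 to 27535620 counts. The keratin genes KRT8, KRT18 and KRT19 were well expressed, KRT7 was at a mean of 0.279 CPM or less in both groups and EPCAM had 0 counts in all 6 libraries, which allows up to 0.110 to 0.138 CPM by library. KRT19 fell from 391 ± 25.0 to 280 ± 14.7 CPM (edgeR adjusted p = 5.78e-06). KRT8 and KRT18 were not called, at log2 fold changes of 0.14 and 0.11. Of 12 fibroblast markers in the table, 4 (DCN, LUM, THY1 and POSTN) had 0 counts in all libraries, and the 12 summed to 377 to 414 CPM in the controls and 366 to 408 CPM in the EV-labelled libraries. That sum hides opposite changes, since 4 of the 5 fibroblast markers that could be tested passed edgeR's test. COL1A2 rose from 114 ± 12.6 to 186 ± 9.64 CPM (adjusted p = 3.72e-07) and COL5A1 from 0.265 ± 0.0827 to 0.847 ± 0.299 CPM (adjusted p = 0.003), while COL6A3 fell from 263 ± 6.12 to 172 ± 14.4 CPM (adjusted p = 3.88e-07) and ACTA2 from 5.23 ± 0.0418 to 2.79 ± 0.676 CPM (adjusted p = 0.000233). Their part in the results on the members was not tested. Summed mitochondrially encoded genes overlapped too, at 7498 to 10582 and 7423 to 10400 CPM. Of these 13 genes 2 were called higher and 1 lower by edgeR (23.1%, beside 40.9% of all tested genes). MT-ND3 rose from 209 ± 12.2 to 307 ± 35.9 CPM (adjusted p = 8.43e-06). MT-ND2 was higher (adjusted p = 0.00507) and MT-ND6 lower (adjusted p = 0.018), both with overlapping groups. In bulk RNA, fewer cells expressing a gene and less RNA per cell cannot be told apart.

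The calnexin cycle holds new glycoproteins in the ER until they fold. The oligosaccharyltransferase moves a preassembled glycan, capped by glucose residues, from a lipid carrier to the nascent protein. Glucosidase I and then glucosidase II remove glucoses, and the glycan left with a single glucose is bound by the lectin chaperones calnexin and calreticulin, which bring in the disulphide isomerase ERp57. Glucosidase II also removes that last glucose and so frees the protein, and the UGGT enzymes put a glucose back on proteins that are still misfolded. Glucosidase II works as a pair, a catalytic subunit made from GANAB and a non-catalytic subunit made from PRKCSH, which retains the enzyme in the ER and helps it to bind its substrate.

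The upstream sequences of GANAB and CALR are shown because GANAB was the member with the large difference between the groups and CALR, the calreticulin gene, is a classical target of the unfolded protein response with little difference here. Both are the 250 bases before the start site in RefSeq on GRCh38.p14, read 5′ to 3′ on the gene's own strand. The GANAB stretch is chr11:62646614-62646863 on the minus strand and the CALR stretch is chr19:12938359-12938608 on the plus strand. Capitals mark matches, on either strand, to the CCAAT box (CCAAT) or to the ER stress response element ERSE (CCAAT, then any 9 bases, then CCACG), which holds a CCAAT box.
GANAB: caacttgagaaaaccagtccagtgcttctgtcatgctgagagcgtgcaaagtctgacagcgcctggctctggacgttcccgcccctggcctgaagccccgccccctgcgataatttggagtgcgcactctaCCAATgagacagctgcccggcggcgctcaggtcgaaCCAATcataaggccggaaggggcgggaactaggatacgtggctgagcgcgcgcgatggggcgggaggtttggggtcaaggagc
CALR: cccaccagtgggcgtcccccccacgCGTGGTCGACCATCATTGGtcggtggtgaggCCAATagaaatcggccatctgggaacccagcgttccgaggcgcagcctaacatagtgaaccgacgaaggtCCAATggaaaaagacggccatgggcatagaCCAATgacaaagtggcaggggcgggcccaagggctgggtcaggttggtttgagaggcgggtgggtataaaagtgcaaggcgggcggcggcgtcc

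The GANAB stretch held 2 CCAAT boxes, at positions -119 and -83 from the start site, and no ERSE. The CALR stretch held 4 CCAAT boxes, of which 1 lies within an ERSE on the minus strand whose first base is at -225. A promoter table of RefSeq had entries for 7 of the 10 members. Among those 7, an ERSE stood in the stretches of CALR and of CANX, the calnexin gene, where it reads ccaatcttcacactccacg in 2 of its 4 listed promoters. Over 35116 promoter stretches of the same length, 32.0% held a CCAAT box and 0.0740% an ERSE. None of the 7 members held ERSE-II (ATTGG, any 1 base, then CCACG, in 0.0513% of all stretches), TGACGTG, the core of the unfolded protein response element (1.68%), or TGATGNAA, the core of the amino acid response element (3.14%). These matches describe letters in a window and were not tested for binding.

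GANAB, the catalytic subunit gene of glucosidase II, was at 559, 539 and 537 CPM (library-scaled counts, with TMM factors) in the control libraries. In the EV-labelled libraries it was at 226, 230.1 and 252 CPM. The groups were far apart, and the highest EV-labelled library lay below the lowest control by more than the whole spread within either group. The means were 545 ± 12.4 and 236 ± 13.9 CPM (SD, n = 3 each). The fitted log2 fold change was -1.21 ± 0.06 (SE), or 2.31-fold lower. These levels rest on 5021 to 14736 counts per library. Among the 2282 tested genes averaging 100 CPM or more, GANAB had the 9th lowest fold change, and 16 such genes were at least 2-fold lower. Among all 14670 tested genes it ranked 237th from the lowest. In the authors' deposited table, whose fold changes are control over EV, GANAB has a log2 fold change of 1.19 and is the only one of the 10 members marked as changed. The rule behind that mark was not stated, and STT3B and MOGS also have a q under 0.05 in the authors' deposited table.

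PRKCSH, the partner subunit gene, did not share that difference. It was at 465, 443 and 431 CPM in the controls and at 439, 406 and 451 CPM in the EV-labelled libraries, and the groups overlapped. Its log2 fold change was -0.05 ± 0.06 (SE). MOGS, which encodes glucosidase I, the enzyme that acts just before glucosidase II, was at 120.1, 125 and 121 CPM against 112, 98.7 and 108 CPM. The MOGS groups did not overlap, but the difference was small, at -0.19 ± 0.06 on the log2 scale, or 12.6% below the control level as fitted (percent change -12.6).

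**Figure D1:**
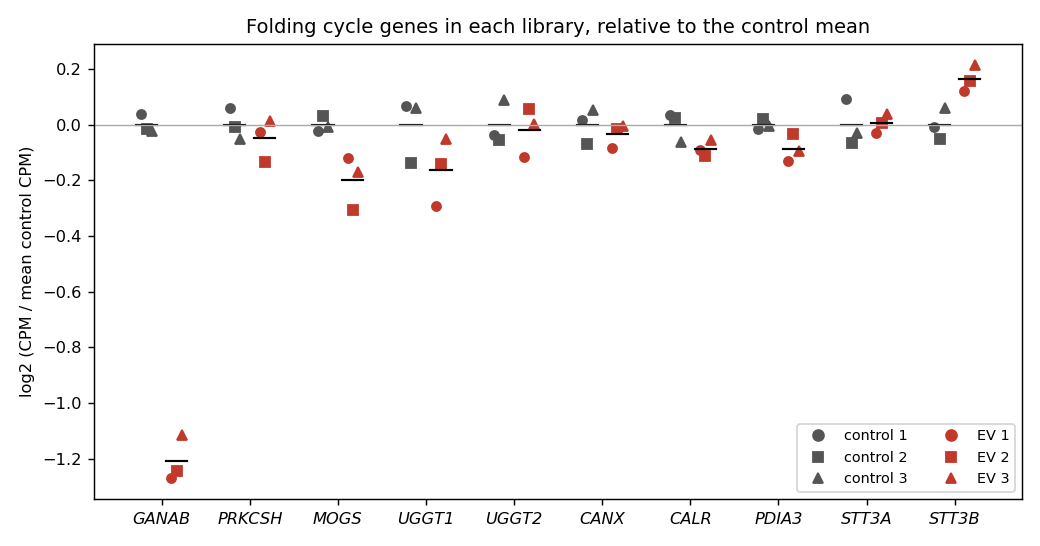
Log2 ratio of CPM to the mean control CPM for the 10 genes (x axis), with 1 point per library, controls in grey and EV-labelled libraries in red, and a black bar at the mean of each 3 on the log2 scale. GANAB lies near -1.2 in the EV-labelled libraries, while the fitted log2 fold changes of the other 9 genes run from -0.19 to 0.16.

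Of the 2 folding sensors, UGGT1 is the main reglucosylating enzyme and UGGT2 its homologue. UGGT1 was at 147, 127 and 146 CPM in the controls and 114, 127 and 135 CPM in the EV-labelled libraries. Control replicate 2 lay among the EV-labelled values, so the groups overlapped, and the log2 fold change was -0.16 ± 0.07 (SE). UGGT2 was scarce, at 11.04 to 12.2 CPM in the controls and 10.6 to 11.9 CPM in the EV-labelled libraries, with 260 to 333 counts per library. Its log2 fold change was -0.02 ± 0.10, the widest error of the 10 genes.

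The lectin chaperone genes were the most abundant members. CANX, which encodes the membrane-bound calnexin, was at 791, 745 and 810.4 CPM in the controls and 737, 773 and 779.9 CPM in the EV-labelled libraries, with overlapping groups and a log2 fold change of -0.03 ± 0.06. CALR, which encodes the soluble calreticulin, was at 823, 817 and 769 CPM against 753, 743 and 773 CPM. A single EV-labelled CALR value, that of replicate 3, exceeded control replicate 3, and the log2 fold change was -0.09 ± 0.06. PDIA3, which encodes the disulphide isomerase ERp57, was at 188, 193 and 189.5 CPM against 174, 186 and 178 CPM. Its groups did not overlap, at a log2 fold change of -0.09 ± 0.06. Its pseudogene copy PDIA3P1 was listed at a mean of 23.5 CPM in the controls and 19.9 CPM in the EV-labelled libraries. The PDIA3P1 groups did not overlap, at a log2 fold change of -0.24 ± 0.09 (SE, edgeR adjusted p = 0.0374). Reads of this pair may have been split between them, and the level and fold change of PDIA3 are uncertain to that extent.

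STT3A and STT3B encode the alternative catalytic subunits of the oligosaccharyltransferase. The STT3A complex works at the translocon on proteins as they enter the ER, and the STT3B complex can act on sites that were missed. STT3A was at 221, 198 and 204 CPM in the controls and 203, 208 and 213 CPM in the EV-labelled libraries, with means of 208 ± 12.0 and 208 ± 4.83 CPM. STT3B was at 120.4, 117 and 126 CPM against 132, 135 and 141 CPM. All 3 EV-labelled STT3B values lay above the controls, at a log2 fold change of 0.16 ± 0.06, the one member with a difference above 0.1 in that direction.

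In the fit over all genes, 3 of the 10 members had an adjusted p under 0.05 (edgeR's quasi-likelihood test), GANAB and MOGS lower and STT3B higher, beside 40.9% of all tested genes (20.7% lower and 20.2% higher). The groups did not overlap for 4 of the 10, the same 3 genes and PDIA3, beside 50.6% of all tested genes (25.5% lower and 25.1% higher). The median log2 fold change was -0.07 over the 10 members and -0.01 over all tested genes. Since the comparison was in view when the members were chosen, nothing is read from these shares. Without EV replicate 2, MOGS (-0.14) and STT3B (0.17) were no longer called and the count of called members was 1, GANAB. UGGT1 was called without control replicate 2 (-0.22) and without EV replicate 3 (-0.21), and STT3B was not called without control replicate 1 (0.16), control replicate 2 (0.14) or EV replicate 3 (0.14).

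Levels were set side by side per kilobase of annotated exon, with GENCODE v29 lengths, which all 10 members had. Per length, CALR led the controls at 296 CPM per kb, followed by CANX at 125, GANAB at 108, PRKCSH at 86.4, PDIA3 at 44.9, MOGS at 34.0, STT3A at 28.1, STT3B at 24.2, UGGT1 at 12.3 and UGGT2 at 1.42 CPM per kb. No neighbours in that order overlapped over the 3 control libraries. In the EV-labelled libraries GANAB stood below PRKCSH, with 44.9 to 50.1 CPM per kb against 78.7 to 87.2, and was next to PDIA3, at 41.0 to 43.8 CPM per kb. MOGS and STT3A overlapped there, as did STT3A and STT3B, so the order of those 3 was not resolved. The length of all annotated exons overstates the length of the RNA where transcripts skip exons, which shifts a gene's level per length in both groups alike. The size of that shift can differ from gene to gene, so the order across genes depends on these lengths. The spread over libraries does not settle that order.

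**Figure D2:**
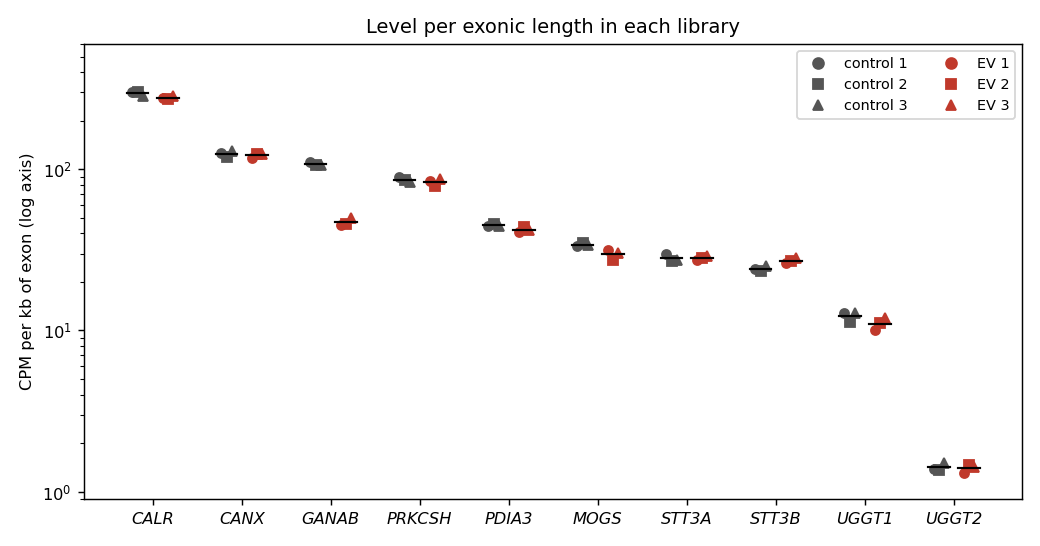
CPM per kb of exon (log axis) for the 10 genes, ordered by their control level, with 1 point per library and bars at group means (controls grey, EV-labelled red). GANAB moves from a control mean of 108 to 46.9 CPM per kb. With these exon lengths, on which the order across genes depends, it moves from above PRKCSH to close to PDIA3.

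A ratio of 2 genes within a library does not depend on how libraries are scaled. Its level depends on the exon lengths used, while its fold difference between the groups does not. The ratio of GANAB to PRKCSH, per length, was 1.24, 1.25 and 1.28 in the controls and 0.529, 0.582 and 0.574 in the EV-labelled libraries. The means were 1.25 ± 0.0221 and 0.562 ± 0.0283 (SD, n = 3 each), so the 2 subunit transcripts of glucosidase II differed in balance by 2.23-fold between the groups. The ratio of GANAB to MOGS, the 2 catalytic glucosidase genes, was 3.18 ± 0.121 in the controls and 1.58 ± 0.130 in the EV-labelled libraries. STT3A to STT3B stood at 1.25, 1.15 and 1.09 in the controls and at 1.05, 1.05 and 1.03 in the EV-labelled libraries, a small shift toward STT3B without overlap. The ratios of UGGT1 to UGGT2 (8.71 ± 0.589 and 7.89 ± 0.424) and of CALR to CANX (2.36 ± 0.172 and 2.28 ± 0.0692) overlapped between the groups. These ratios come from the same libraries that guided the choice of members and are descriptions.

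**Figure D3:**
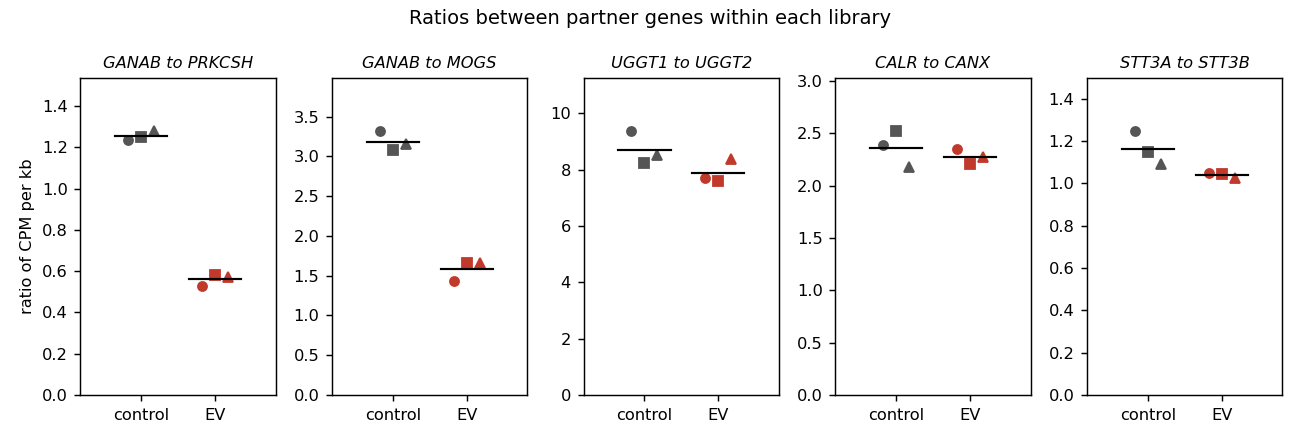
Ratios of CPM per kb between partner genes (y axes from 0), with 1 point per library and a bar at the group mean. The ratio of GANAB to PRKCSH averages 1.25 in the controls and 0.562 in the EV-labelled libraries, and that of GANAB to MOGS 3.18 and 1.58, while UGGT1 to UGGT2 and CALR to CANX overlap between groups.

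Summed over the 10 members, the controls held 3315 to 3445 CPM and the EV-labelled libraries 2902 to 3043 CPM. Without GANAB the sums were 2776 to 2886 and 2675 to 2791 CPM, which overlap.

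The protein-coding genes that flank GANAB in RefSeq on GRCh38.p14 were added after the data were seen. On the side of its 3′ end lie B3GAT3, at 75.7 ± 5.83 CPM in the controls and 82.0 ± 4.49 in the EV-labelled libraries, and ROM1, at 3.86 ± 0.161 and 3.33 ± 1.06 CPM. On the side of its start lie INTS5, at 51.2 ± 3.54 and 54.9 ± 3.79 CPM, and LBHD1, at 2.53 ± 0.0991 and 2.18 ± 0.142 CPM. None of the 4 passed the test (log2 fold changes from -0.22 to 0.12, edgeR adjusted p from 0.182 to 0.404). No annotated RefSeq gene overlaps GANAB. Among the other members, PRKCSH overlaps ODAD3, with a mean of 2.15 CPM, and the sources used here do not say whether counting used strand.

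The genes nearest to GANAB in profile were sought among 9011 non-member genes averaging 10 CPM or more, by the root mean square difference of centred log2 CPM over the 6 libraries. They were ENSG00000272405 (difference 0.0613), GRB10 (0.0654), HABP4 (0.0718), ENSG00000229953 (0.0725) and ANGPTL4 (0.0825), with log2 fold changes from -1.32 to -1.12. GRB10 encodes an adaptor of insulin receptor signalling and ANGPTL4 a secreted inhibitor of lipoprotein lipase. GRB10 was at 118 ± 2.79 CPM in the controls and 47.6 ± 2.41 CPM in the EV-labelled libraries. Likeness over 6 libraries in 2 groups is set mostly by the difference between the groups.

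**Figure D4:**
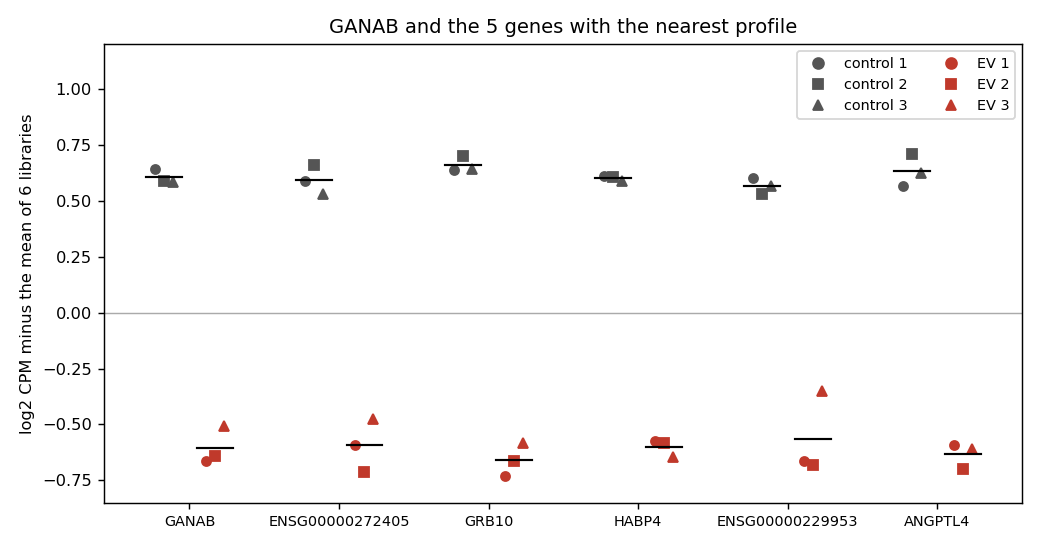
Log2 CPM, centred on each gene's mean over the 6 libraries, for GANAB and the 5 genes with the nearest profile, with 1 point per library (controls grey, EV-labelled red) and bars at group means. In each of the 6 genes all controls lie above 0 and all EV-labelled libraries below 0.

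Homologues of GANAB and of the lectins were set beside them. GAA, the lysosomal acid alpha-glucosidase of the same enzyme family as GANAB, fell from 202 ± 4.78 to 172 ± 9.81 CPM (log2 fold change -0.23 ± 0.06 (SE), edgeR adjusted p = 0.004). GANC, a neutral alpha-glucosidase of that family, was at 11.5 ± 0.183 and 12.2 ± 0.991 CPM (edgeR adjusted p = 0.498), and MYORG, a further homologue, at 10.5 ± 1.65 and 10.8 ± 1.34 CPM (edgeR adjusted p = 0.799). CLGN, the calnexin homologue known from testis, fell from 7.27 ± 1.10 to 4.94 ± 0.494 CPM (-0.57 ± 0.14, edgeR adjusted p = 0.00298). MGAM, an intestinal homologue of GANAB, and CALR3, a homologue of calreticulin, had 0 counts in all libraries.

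Around the cycle, 142 further genes were grouped in 11 lists. These hold genes of the N-glycoprotein route, the homologues above and genes of polycystic liver and kidney disease, and they were written with earlier results of these data known. Of the 134 that could be tested, 40 were higher and 17 lower with EVs (edgeR, adjusted p under 0.05), or 42.5% beside 40.9% of all tested genes. Over all tested genes 20.2% were higher and 20.7% lower. The median log2 fold change was 0.09 over the lists and -0.01 over all tested genes, and nothing is read from a list whose share lies near that of all genes. Only 1 was at least 2-fold different, MAN1C1, a Golgi mannosidase gene that rose from 1.01 ± 0.301 to 2.21 ± 0.137 CPM.

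Of 24 genes that assemble the dolichol-linked glycan, 11 were higher and 0 lower, with a median of 0.19. In either direction 45.8% were called, beside 40.9% of all tested genes (20.2% higher and 20.7% lower), so nothing is read from that share. At an unadjusted p under 0.05 the lower count was also 0, as it was with DESeq2 and limma-voom. The higher count was 8 with DESeq2, 10 with limma-voom and, in the edgeR fit without EV replicate 2, 5. DOLK, which makes dolichol phosphate, rose from 34.6 ± 1.04 to 49.2 ± 2.37 CPM (0.51 ± 0.07, adjusted p = 9.68e-06). DOLPP1, which recycles the lipid carrier, was at 0.44 ± 0.08, and ALG8, a glucosyltransferase that adds one of the glucoses later removed by glucosidase II, at 0.35 ± 0.07. Of 9 tested accessory subunits of the oligosaccharyltransferase, 4 were higher and 0 lower by edgeR. Again 0 were lower at an unadjusted p under 0.05 and with DESeq2 and limma-voom. The share called, 44.4%, is also near that of all tested genes, and nothing is read from it. They included TMEM258 (0.49 ± 0.09), RPN2 (0.27 ± 0.06) and DAD1 (0.27 ± 0.06). Of 16 translocon and signal peptidase genes, 9 rose and 1, SEC63, fell (62.5% called, median 0.21). SSR1, a subunit of the translocon-associated complex, rose from 104 ± 3.93 to 136 ± 2.42 CPM (0.39 ± 0.06, adjusted p = 2.77e-05), with SEC61B, a subunit of the protein-conducting channel, at 0.36 ± 0.06 and SPCS3 of the signal peptidase at 0.47 ± 0.09.

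Folding factors outside the lectin cycle were mixed. In the protein disulphide isomerase family and ER oxidation list 2 of 19 rose and 5 fell, with a median of -0.00. That is 36.8% called, beside 40.9% of all tested genes (20.2% higher and 20.7% lower). TXNDC5, a thioredoxin-like isomerase, rose from 11.5 ± 0.640 to 18.9 ± 0.910 CPM (0.72 ± 0.09, adjusted p = 5.51e-06), TMX1 was at 0.41 ± 0.06, and ERO1A, the oxidase that recharges these enzymes, fell (-0.24 ± 0.06). The lower count was 1 without control replicate 2 and 1 without EV replicate 2, and 3 without EV replicate 1 or EV replicate 3. In the list of BiP, the ER Hsp70, and its partners 3 of 19 tested rose and 3 fell (31.6% called), and with upper-quartile scaling 5 fell. HSPA5, which encodes BiP, fell from 635 ± 10.9 to 495 ± 23.4 CPM (-0.36 ± 0.06, adjusted p = 5.4e-05). Its co-chaperone gene DNAJB11 rose (0.35 ± 0.06), as did SDF2L1, from 20.7 ± 0.847 to 34.0 ± 2.89 CPM (0.72 ± 0.08, adjusted p = 1.39e-06).

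Of 19 tested genes of mannose trimming and ER-associated degradation, the route for glycoproteins that fail to fold, 4 rose and 4 fell (42.1% called). Over all tested genes 40.9% were called, 20.2% higher and 20.7% lower. HERPUD1, a stress-induced scaffold of the degradation complex, fell from 103 ± 8.33 to 56.2 ± 5.40 CPM (-0.88 ± 0.07, adjusted p = 3.74e-08) and SYVN1, the ubiquitin ligase of that complex, was at -0.36 ± 0.07, while UBE2G2, a conjugating enzyme, was at 0.29 ± 0.06. The lower count was 2 without EV replicate 1 and 2 without EV replicate 3. Of 9 ER exit lectins and cargo receptors 1 was higher and 0 lower by edgeR (11.1% called), with 0 lower at an unadjusted p under 0.05 and with DESeq2 and limma-voom. It was MCFD2, a partner of the lectin LMAN1 (0.30 ± 0.09), and without control replicate 3, which at 98.2 CPM was the lowest library for MCFD2, its log2 fold change was 0.16 and the higher count was 3. Of 12 tested Golgi genes that trim or branch the same glycan 5 rose and 1, B4GALT1, a galactosyltransferase gene, fell (-0.49 ± 0.09). So 6 of 12 (50%) were called, beside 40.9% of all tested genes. MGAT1, which starts complex glycans, was at 0.26 ± 0.06, and without EV replicate 2 the higher count was 3. MANEA, the endomannosidase that can remove a glucosylated branch without the ER glucosidases, was singled out after its values were seen. It was at 9.68 ± 0.374 CPM in the controls and 12.1 ± 1.11 CPM in the EV-labelled libraries (0.32 ± 0.10, adjusted p = 0.0197). MGAT2 (0.86 ± 0.22, on 35 to 90 counts per library) and FUT8 (0.31 ± 0.10) of the same list were also called higher. Any link of MANEA to the level of GANAB was not tested.

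GANAB and PRKCSH are also disease genes of polycystic liver and kidney. Of 8 tested others in that group 4 rose and 2 fell, or 75.0% beside 40.9% of all tested genes, and 4 of those 6 were counted in the lists above too. PKD1, which encodes polycystin-1, fell from 179 ± 22.0 to 126 ± 10.6 CPM (-0.51 ± 0.08, adjusted p = 4.38e-05), though its copies elsewhere in the genome make its counts uncertain. LRP5, a Wnt co-receptor gene, rose from 107 ± 7.75 to 144 ± 9.76 CPM (0.42 ± 0.07). SEC61B, ALG8 and DNAJB11, already described, were its other higher members, and SEC63 (-0.25 ± 0.06) was the second lower one.

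**Figure D5:**
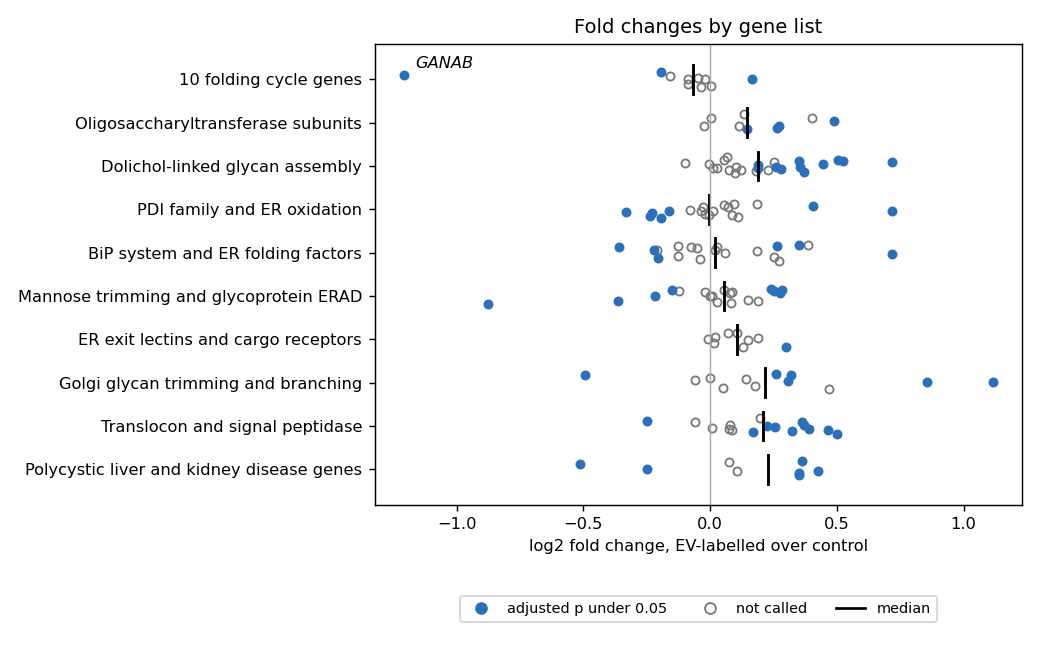
Log2 fold change, EV-labelled over control, of each tested gene (points), by list, filled where the edgeR adjusted p was under 0.05, with the list median as a black bar. GANAB, at -1.21, lies apart from the other folding cycle genes. The medians of the related lists drawn here run from -0.00 (disulphide isomerases and ER oxidation) to 0.23 (polycystic disease genes). Between them lie BiP and its partners (0.02), mannose trimming and degradation (0.06), ER exit (0.11) and oligosaccharyltransferase subunits (0.14). Dolichol-linked glycan assembly (0.19), the translocon (0.21) and the Golgi genes (0.22) lie there too.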

How the data were processed

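The authors deposited raw counts per gene for 6 libraries. TopHat, RSEM and hg19 are named in the submitters' processing notes, without versions or roles, and the annotation was not given in the sources used here. Of 32453 features, 375 assembled loci without a gene name (0.0990% to 0.134% of counts) were left out. The authors' deposited table of their own comparison gives mean log2 abundance, log2 fold changes, p-values and q-values; its fold changes are control over EV, as its own means show. Its p-values and q-values were used only to say which members have a q under 0.05.

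The counts were fitted in R 4.3.3 by edgeR 4.0.16 (quasi-likelihood test, TMM, filterByExpr, Benjamini-Hochberg over 14670 genes, threshold 0.05). Fold changes are as fitted (prior count 0.125), and their SE is the fold change divided by the square root of F. Reads amplified by PCR are not independent molecules, so limits from 3 counts cover counting error only. No replicate pair agreed within sampling noise. The members and lists were chosen with earlier results of these data known. Text genes are all members, up to 3 called genes per list with the lowest adjusted p and a mean of at least 1 CPM, all homologues in the table, the 5 nearest profiles to GANAB, and the exceptions to counts of 5 or fewer. Cell type markers, genes that flank or overlap members, PDIA3P1, MANEA, MGAT2 and FUT8 were named outside this rule. Alternatives were other scalings and filters, DESeq2 1.42.0, limma-voom (limma 3.58.1), each library left out and a replicate block.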

Additional observations from a re-analysis of the deposited data

How the results depend on the processing

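The log2 fold change of GANAB ran from -1.25 to -1.17 over the 14 alternatives, which is a description only, since that value chose the members. Values near 0 changed sign. STT3A was at -0.0152 with upper-quartile scaling and at -0.0048 with a filter of 1 CPM in 3 libraries, and ran from -0.0280 to 0.0522 when each library was left out. UGGT2 ran from -0.0561 to 0.0348 and MYORG from -0.0793 to 0.13 when each library was left out. The number of called members ran from 1 to 3 and the number of lower genes in the related lists from 11 to 15 in those fits, which had fewer libraries. UGGT1 was called with upper-quartile scaling (-0.18), where STT3B was not (0.14). Every alternative with all 6 libraries kept the number of called members at 3. Replicate numbers did not pair the libraries (correlation of deviations from -0.0209 to -0.00895 over 3 same-numbered pairs). With the replicate block 2846 genes were higher and 2897 lower, 3 members were called, and GANAB was at -1.21. The block changed no call among the members, and the lower count of the disulphide isomerase list was 3. Depth limits the named genes with few counts per library. Among them are COL5A1 (4 to 26 counts), MAN1C1 (16 to 63), MGAT2 (35 to 90), LBHD1 (44 to 72), ACTA2 (57 to 144), ROM1 (58 to 123), CLGN (108 to 222) and UGGT2 (260 to 333).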
